A study of Mus musculus with 12 samples.

Results

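Rph3a, Gm42656, Glo1, Dnah8, Gm13443, Mfap1a, Mfap1b, Gm14018, Amd-ps4 and Ubtd1 are 10 of the 22317 gene symbols in the count table. They were chosen by their counts, which differed between day 2 libraries and later libraries of like tissue content, so the early-to-late differences of these genes are given below as a description, without p-values, and where they are counted among the calls over all genes, the count follows from that choice. Their positions and neighbours were then examined. The libraries came from poly(A) RNA of 8-week-old male BALB/c mice in which photothrombosis, the closure of vessels by light and a dye, had been made in the skull or in the brain. According to the labels, SB2 and SB4 are brain cortex on day 2 and day 4 after injury of the skull, and BS2 and BS6 are interparietal bone on day 2 and day 6 after injury of the brain, with 3 libraries in each of the 4 groups. Uninjured controls were not analysed here. The authors describe 3 biological replicates per condition. The labels do not tie each library to a mouse, and the p-values measure the spread between these libraries.

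The tissue markers went against the labels of both SB2 and BS2. The summed level of 8 neuron markers was 8262 to 8999 CPM (counts scaled to an equal library size) in BS2 and SB4 and 30.0 to 140.7 CPM in SB2 and BS6. The summed level of 7 osteoblast and bone matrix markers was 13.8 to 39.9 CPM in BS2 and SB4 and 42428 to 163297 CPM in SB2 and BS6. The libraries labelled BS2 and SB4 are therefore called brain-rich here and the libraries labelled SB2 and BS6 bone-rich, and SB4 was set against BS2 and BS6 against SB2. By the labels, the later group of either comparison also had its injury in the other organ, so the day and the injured organ cannot be told apart within either of them. If the names of SB2 and BS2 had been exchanged, each comparison would instead lie within 1 injured organ and its labelled tissue, and the files used here do not settle which holds. The total count per library was 14126082 to 18972654. The library BS6-2 stood apart by its neutrophil markers, with 133454 counts of S100a9 against 6493 and 14282 in BS6-1 and BS6-3. The summed level of 4 neutrophil markers was 0.649 to 1.23 CPM in BS2 and 1.73 to 3.86 CPM in SB4, where S100a9 was the only marker tested and passed the filter on low counts only through SB4, with 8, 6 and 9 counts in BS2 against 32, 53 and 21 in SB4. It was 686 to 1228 CPM in SB2 and 1101 to 20147 CPM in BS6, which overlapped, and there 0 of 4 markers were called by edgeR, with 4 at an unadjusted p under 0.05, and 4 by DESeq2. Their part in the levels of the members was not tested. For such counts of genes, the shares over all genes were 0.147% called by edgeR, 0.274% called by DESeq2 and 11.9% at an unadjusted p under 0.05 in SB4 against BS2, and 1.86%, 6.74% and 29.2% in BS6 against SB2.

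The genes have unlike roles. Rabphilin-3A, made from Rph3a, is a neuronal protein that binds Rab3 and Rab27 on synaptic vesicles. Glo1 encodes glyoxalase 1, which detoxifies methylglyoxal with glutathione, and Dnah8 a heavy chain of the dynein arms of cilia and sperm tails. Mfap1a and Mfap1b encode copies of a protein of the spliceosome, and Ubtd1 a ubiquitin-like protein that works with ubiquitin-conjugating enzymes. Gm13443 and Amd-ps4 are processed pseudogenes, copies of spliced messages inserted elsewhere in the genome, of Glo1 and of the S-adenosylmethionine decarboxylase genes Amd1 and Amd2, which serve polyamine synthesis. Gm14018 is an unprocessed pseudogene related to Wdr76, a gene for a WD40-repeat protein.

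In GRCm38 with the GENCODE M21 annotation, the 10 genes lie at 6 places. Mfap1b (chr2:121460235-121474067, minus strand), Gm14018 (chr2:121485432-121491512, plus strand) and Mfap1a (chr2:121491911-121506665, minus strand) lie in this order, with 11364 bases between the first pair and 398 bases between Gm14018 and Mfap1a. Gm14017, a gene with too few counts for a test, lies between Mfap1b and Gm14018. Gm42656 (chr5:120970043-120972347, minus strand), an unspliced transcript model, lies within an intron of Rph3a (chr5:120940499-121010092, minus strand) and shares 0 exonic bases with it. The 5′ ends of Glo1 (chr17:30584936-30626871, minus strand) and Dnah8 (chr17:30624354-30877365, plus strand) overlap by 2518 bases, of which 0 are exonic in both. This rests on the outermost GENCODE end of Glo1, since its upstream region in RefSeq (chr17:30612610-30612909) lies outside the overlap. Gm13443 (chr2:35340409-35340963, plus strand), Amd-ps4 (chr4:51253025-51254027, minus strand) and Ubtd1 (chr19:41981763-42034643, plus strand) each stand alone.

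Several of these genes are near copies of another gene, and the sequences show how little separates their reads. Gm13443 aligned over all of its 555 bases to the coding sequence of Glo1 with 3 mismatches.

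Gm14018 aligned to coding bases of Wdr76 with 9 mismatches and 1 gap in 455 bases. A stretch with 8 of the 9 mismatches is printed here, with the differing bases in capitals.
Wdr76-201: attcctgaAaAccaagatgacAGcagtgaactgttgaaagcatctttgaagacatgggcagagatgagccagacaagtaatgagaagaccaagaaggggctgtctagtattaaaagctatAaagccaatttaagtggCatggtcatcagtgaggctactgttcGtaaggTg
Gm14018-201: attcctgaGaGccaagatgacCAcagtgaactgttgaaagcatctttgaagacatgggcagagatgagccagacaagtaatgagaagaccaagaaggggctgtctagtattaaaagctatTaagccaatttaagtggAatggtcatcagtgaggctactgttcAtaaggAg

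Amd-ps4 differed from the coding sequence of Amd1 by 3 mismatches and 1 gap over 1003 bases, and by the same numbers from that of Amd2. The stretch around A856C, counted from the 5′ end of transcript Amd1-201, shows 1 of them.
Amd1-201: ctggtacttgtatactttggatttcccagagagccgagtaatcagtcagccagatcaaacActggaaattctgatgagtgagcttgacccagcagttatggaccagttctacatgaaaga
Amd-ps4-201: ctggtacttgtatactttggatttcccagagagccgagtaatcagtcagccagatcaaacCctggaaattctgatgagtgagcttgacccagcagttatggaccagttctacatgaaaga

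Mfap1a and Mfap1b had 0 mismatches in their 1320 coding bases, of which a stretch of 120 is printed, and all 97 mismatches of their 3121 aligned transcript bases lay outside the coding sequence.
Mfap1a-201: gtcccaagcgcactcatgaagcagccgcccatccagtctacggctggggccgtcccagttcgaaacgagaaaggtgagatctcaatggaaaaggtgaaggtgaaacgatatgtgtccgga
Mfap1b-201: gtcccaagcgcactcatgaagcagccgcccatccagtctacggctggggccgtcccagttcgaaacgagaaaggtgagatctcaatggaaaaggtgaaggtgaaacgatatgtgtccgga

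Upstream of their starts in RefSeq (GRCm38.p6), the 250 bases before Mfap1a and before Mfap1b aligned over 230 bases with 90% identity. Of the 150-base windows in the transcripts of Mfap1b, 54.2% were also present, letter for letter, in Mfap1a. The share of windows found in another gene was 58.0% for Amd-ps4, 44.6% for Gm13443, with all of these in Glo1, and 24.8% for Gm14018, with all of these in Wdr76. It was 0% for Rph3a, Gm42656 and Ubtd1. The counting program and its treatment of reads with several matches are not given in the sources used here, so counts of the near copies are uncertain as to which copy the reads came from.

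Rph3a had 8758, 8059 and 7599 counts in the 3 BS2 libraries and 155, 230 and 235 counts in the 3 SB4 libraries. All SB4 libraries lay far below all BS2 libraries, and the mean level was 528 ± 20.6 CPM (SD, n = 3) in BS2 and 12.2 ± 1.08 CPM in SB4, a ratio of 43.3. The log2 fold change was -5.45 ± 0.07 (SE). In the bone-rich libraries Rph3a had 37, 46 and 5 counts in SB2 and 1, 12 and 0 counts in BS6, and these groups overlapped. The bone-rich log2 fold change was -2.70 ± 1.20. It was -5.50 without BS6-2, and over all libraries left out in turn it ran from -5.50 to -2.13. The neuron markers summed to 30.0 to 74.1 CPM in SB2 and 57.3 to 140.7 CPM in BS6, and their part in the counts of Rph3a there was not tested.

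Gm42656, inside Rph3a, was likewise seen mainly in BS2. It had 64, 46 and 63 counts in BS2 and 0 counts in each SB4 library, a level at least 20.8-fold lower in SB4 when 3 counts per library are taken as the limit that a count of 0 allows. In the bone-rich libraries it had 1 count in SB2-2 and 0 counts in the other 5, too few for a test. Its counts were 0.705 ± 0.129% of the sum of both genes in BS2. Of 15 Rab3 and Rab27 partners of rabphilin-3A tested in SB4 against BS2, 0 were called by edgeR and 0 by DESeq2, with 2 at an unadjusted p under 0.05, and their median log2 fold change was 0.06, against -0.00 over all genes tested. Rab3a, the vesicle GTPase that rabphilin binds, had a log2 fold change of 0.06 ± 0.05, and Snap25, a fusion protein of the synapse, of 0.06 ± 0.05. In BS6 against SB2, 0 of 14 were called by edgeR, with 7 at an unadjusted p under 0.05, and 4 by DESeq2, beside 1.86%, 29.2% and 6.74% of all genes. These 4, Rab27a, Sytl1, Doc2b and Rims3, were each highest in BS6-2, with 390, 2326 and 512 counts of Rab27a in BS6 against 412, 299 and 337 in SB2. The median of the list there was 0.88, against 0.02 over all genes tested, with Rab3a at 0.75 ± 0.23 and Snap25 at 0.79 ± 0.54, while Rph3a was at -2.70.

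**Figure D1:**
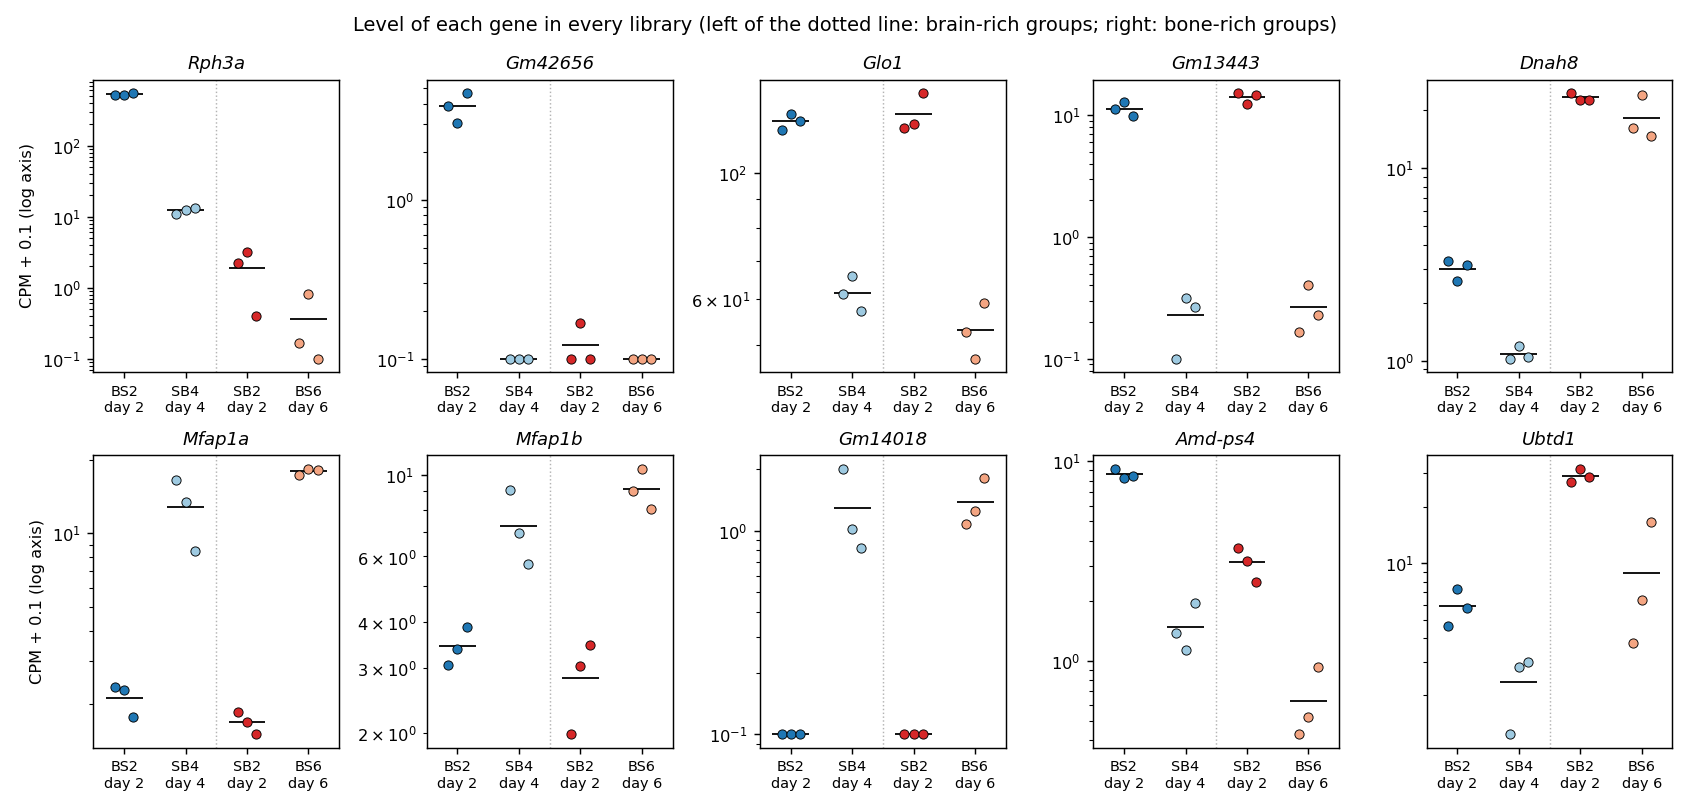
Level of the 10 genes in every library, as CPM + 0.1 on a log axis, with 3 points and a bar at their mean for each group. Brain-rich groups (BS2, SB4) stand left of the dotted line and bone-rich groups (SB2, BS6) right of it. Mfap1a, Mfap1b and Gm14018 are higher in both later groups, and Gm13443, Glo1, Amd-ps4 and Ubtd1 lower in both.

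Glo1 was at like levels in both kinds of tissue and lower in the later libraries. It had 2018, 1978 and 1698 counts in BS2 and 863, 1213 and 1026 counts in SB4. It had 2104, 1830 and 2260 counts in SB2 and 805, 780 and 927 counts in BS6. The later libraries lay below the day 2 libraries in both kinds of tissue, at 61.4 ± 4.40 CPM against 123 ± 3.82 CPM in the brain-rich and 52.9 ± 5.95 CPM against 127 ± 9.94 CPM in the bone-rich groups. The log2 fold changes were -1.02 ± 0.06 and -1.24 ± 0.12. Glo1 lay just past the threshold of 1 used for calls, inside which Ier2 stood at 1.06 and outside which Ctps2 stood at -0.96 in the same comparison.

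Gm13443, the copy of Glo1 on another chromosome, split the libraries more sharply. It had 187, 200 and 133 counts in BS2 and 0, 4 and 3 counts in SB4. In the bone-rich groups it had 265, 185 and 239 counts in SB2 and 1, 5 and 2 counts in BS6. No later library came near a day 2 library, and the log2 fold changes were -6.28 ± 0.33 and -6.30 ± 0.40. Without BS6-2 the second was -7.06, and over all libraries left out in turn they ran from -6.80 to -5.83 and from -7.06 to -5.94. Of the summed counts of Glo1 and Gm13443, the pseudogene held 8.31 ± 0.971% in BS2 and 9.98 ± 1.06% in SB2, but 0.207 ± 0.180% in SB4 and 0.325 ± 0.274% in BS6. The summed level of both genes was 134 ± 4.81 CPM in BS2, 141 ± 10.4 CPM in SB2, 61.6 ± 4.43 CPM in SB4 and 53.0 ± 5.87 CPM in BS6. The lower level of the later groups was therefore present in the sum as well, with ratios of day 2 to late of 2.18 and 2.65.

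Of the other genes of methylglyoxal metabolism, 0 of 7 were called by edgeR in SB4 against BS2, with 0 at an unadjusted p under 0.05 and 0 called by DESeq2. In BS6 against SB2 0 of 8 were called, with 5 at an unadjusted p under 0.05 and 1, Ager, called by DESeq2. Hagh, the second enzyme of the glyoxalase pathway, had log2 fold changes of 0.00 ± 0.07 and 0.41 ± 0.12. Park7, whose activity on methylglyoxal adducts is debated, had -0.07 ± 0.06 and -0.56 ± 0.09.

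Dnah8, which meets Glo1 head to head in the GENCODE annotation, had 54, 39 and 42 counts in BS2 and 13, 20 and 17 counts in SB4. The brain-rich groups did not overlap, at 2.91 ± 0.365 CPM against 0.985 ± 0.0891 CPM, and the log2 fold change was -1.57 ± 0.28. In the bone-rich groups it had 431, 340 and 371 counts in SB2 and 246, 398 and 229 counts in BS6. These overlapped through BS6-2, with a log2 fold change of -0.33 ± 0.21 that became -0.60 without that library. Over all libraries left out in turn it ran from -0.60 to -0.20. The region shared with Glo1 on the opposite strand has 0 bases that are exonic in both genes. Since strand was not stated, reads there remain uncertain only where introns were sequenced or counted. Of the other axonemal dynein genes, 0 of 13 tested were called in SB4 against BS2, with 0 at an unadjusted p under 0.05 and 0 called by DESeq2, and 1 of 11 in BS6 against SB2, beside 1.86% of all genes, with 5 at an unadjusted p under 0.05, beside 29.2%. The called gene was Dnah7b, which rose from 3.84 ± 0.549 CPM to 8.37 ± 0.542 CPM (log2 fold change 1.14 ± 0.19, edgeR adjusted p = 0.0338). DESeq2 called 3 there, Dnah7a, Dnah7b and Dnah14. The median of these genes was -0.05 and 0.94, against -0.00 and 0.02 over all genes tested. Markers of ciliated ependymal cells, which carry motile cilia, summed to 5.59 to 8.13 CPM in BS2 and 3.70 to 6.03 CPM in SB4, and their part in the level of Dnah8 was not tested.

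The 3 genes of the Mfap1 locus were higher in the later libraries. Mfap1a had 38, 34 and 23 counts in BS2 and 231, 246 and 151 counts in SB4. It had 31, 24 and 23 counts in SB2 and 265, 303 and 284 counts in BS6. Every later library was above every day 2 library, with log2 fold changes of 2.61 ± 0.25 and 3.50 ± 0.16. Mfap1b had 50, 51 and 52 counts in BS2 and 127, 126 and 101 counts in SB4. It had 33, 44 and 55 counts in SB2 and 137, 170 and 125 counts in BS6. Its groups did not overlap either, and its log2 fold changes of 1.08 ± 0.20 and 1.75 ± 0.27 were smaller than those of Mfap1a.

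Per kilobase of exon, the order of both copies differed between the day 2 groups and the later groups. Mfap1a stood at 0.484 ± 0.0745 CPM per kb in BS2 and 0.379 ± 0.0431 CPM per kb in SB2, below Mfap1b at 0.991 ± 0.124 and 0.810 ± 0.226 CPM per kb. In the later groups Mfap1a stood at 3.03 ± 0.959 CPM per kb in SB4 and 4.26 ± 0.128 CPM per kb in BS6, above Mfap1b at 2.13 ± 0.509 and 2.69 ± 0.345 CPM per kb. The share of Mfap1a in the counts of both was 37.9 ± 6.50% and 37.7 ± 9.71% on day 2 and 63.5 ± 3.22% and 66.5 ± 2.73% later. With identical coding sequences, this share depends on how reads common to both copies were assigned, which their sum does not if each read was counted once. The summed level was 5.36 ± 0.147 CPM in BS2 and 19.9 ± 5.69 CPM in SB4, and 4.31 ± 0.589 CPM in SB2 and 26.9 ± 1.42 CPM in BS6.

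Gm14018, between the 2 Mfap1 genes, had 0 counts in each of the 6 day 2 libraries. It had 27, 17 and 13 counts in SB4 and 15, 19 and 27 counts in BS6, levels at least 6.07-fold and 6.94-fold higher with 3 counts per library as the limit. Wdr76, which it resembles and which starts beside Mfap1a, had 102, 122 and 80 counts in BS2, 118, 111 and 154 in SB4, 193, 133 and 163 in SB2 and 140, 178 and 140 in BS6. Gm14018 held 13.2 ± 5.42% of the counts of both in SB4 and 11.8 ± 3.76% in BS6. Of 9 partners of Mfap1 in the spliceosome, 0 were called by edgeR or DESeq2 in either comparison, with 0 and 2 at an unadjusted p under 0.05. Prpf38a, which joins the spliceosome together with Mfap1, had log2 fold changes of -0.09 ± 0.09 and -0.29 ± 0.14, and Smu1 had -0.09 ± 0.07 and -0.24 ± 0.12.

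Amd-ps4 had 154, 127 and 115 counts in BS2 and 18, 19 and 33 counts in SB4. It had 63, 46 and 39 counts in SB2 and 5, 7 and 13 counts in BS6. Later libraries lay below day 2 libraries in both kinds of tissue, with log2 fold changes of -2.63 ± 0.21 and -2.49 ± 0.40. The parent genes were not called. Amd1 had log2 fold changes of -0.05 ± 0.06 (adjusted p = 0.803, edgeR) and -0.47 ± 0.27 (adjusted p = 0.292), and Amd2 of 0.27 ± 0.09 and -0.29 ± 0.31. Amd-ps3, a further pseudogene that shared each of the 495 shared windows of Amd-ps4, had 228, 189 and 253 counts in BS2 and 181, 215 and 219 counts in SB4, and its log2 fold changes were -0.27 ± 0.14 and -0.58 ± 0.24. The share of Amd-ps4 in the summed counts of Amd1, Amd2 and Amd-ps4 was 6.85 ± 0.556% in BS2 and 5.20 ± 0.694% in SB2, and 1.15 ± 0.322% in SB4 and 1.42 ± 0.854% in BS6. Unlike the sum of Glo1 and Gm13443, this sum was nearly level in the brain-rich groups, at 125 ± 4.52 and 120 ± 2.20 CPM, and its bone-rich groups, at 57.6 ± 6.56 and 40.0 ± 14.4 CPM, overlapped. Among 12 genes of polyamine metabolism, 0 were called in SB4 against BS2 by edgeR or DESeq2, with 2 at an unadjusted p under 0.05. In BS6 against SB2 1 was called by edgeR and 1 by DESeq2, with 6 at an unadjusted p under 0.05, beside 1.86%, 6.74% and 29.2% of all genes. It was spermidine synthase, Srm, which fell by 1.12 ± 0.15 on the log2 scale (edgeR adjusted p = 0.0293).

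**Figure D2:**
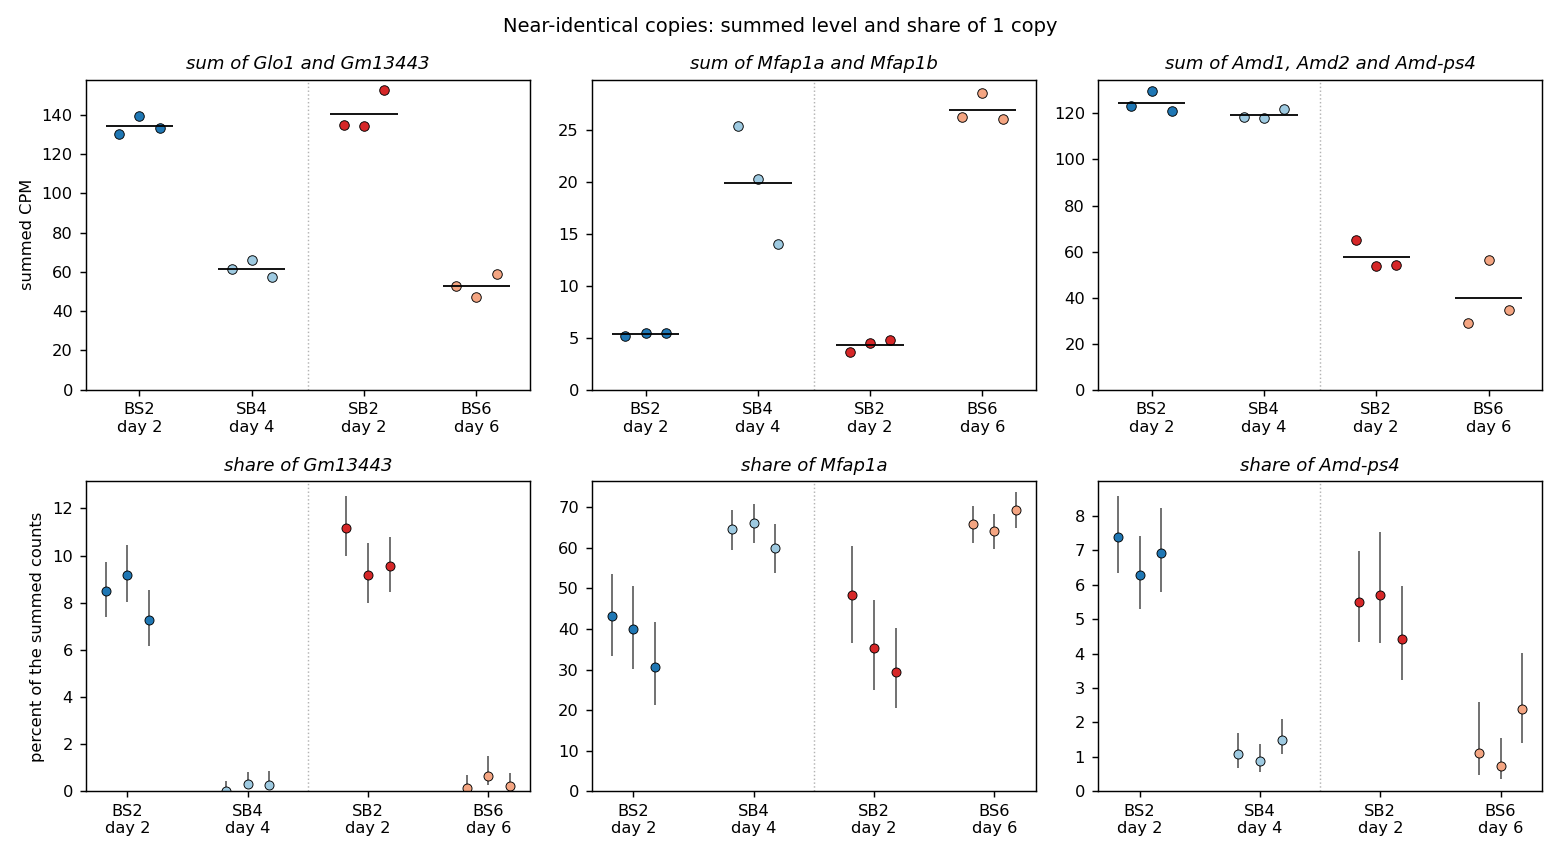
Summed CPM (top) and the share of 1 copy in the summed counts (bottom, in percent) for 3 sets of near-identical genes in every library. Bars at the top are group means, and error bars at the bottom are 95% Wilson intervals, which cover counting error only. The share of Gm13443 is under 1% in all 6 later libraries and over 7% in all 6 day 2 libraries.

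Ubtd1 had 77, 113 and 78 counts in BS2 and 16, 50 and 52 counts in SB4. It had 474, 475 and 469 counts in SB2 and 56, 104 and 257 counts in BS6. The later libraries lay below the day 2 libraries in both kinds of tissue, but those of BS6 were spread widely. The log2 fold changes were -1.35 ± 0.27 and -1.72 ± 0.51. The second was -2.53 without BS6-3, and over all libraries left out in turn it ran from -2.53 to -1.34. Of its ubiquitin partners, 0 of 6 were called by edgeR or DESeq2 in either comparison, with 0 and 1 at an unadjusted p under 0.05 and medians of -0.01 and -0.10. Ube2d1, a ubiquitin-conjugating enzyme, had log2 fold changes of -0.04 ± 0.07 and 0.15 ± 0.12.

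Across all genes, a call meant an adjusted p under 0.05 in edgeR's quasi-likelihood test and an absolute log2 fold change over 1. In SB4 against BS2, 10 of 10 members were called, where 0.147% of the 16278 genes tested were called, and in BS6 against SB2, 6 of 9 members tested were called, where 1.86% of 16329 were called. These counts follow from the way the genes were picked. Among the 14624 genes tested in both comparisons, 8 (0.0547%) were called the same way in both. These were Mfap1a, Mfap1b, Gm14018, Glo1, Gm13443 and Amd-ps4 together with 2 further genes, both higher in the later groups, the noncoding transcript 4933406C10Rik on chromosome 12 and the class I histocompatibility gene H2-Q4 on chromosome 17. H2-Q4 stood at 0.658 ± 0.168 CPM in BS2 and 3.40 ± 1.69 CPM in SB4, and at 16.5 ± 0.901 CPM in SB2 and 55.7 ± 24.3 CPM in BS6. 4933406C10Rik stood at 3.36 ± 0.785 and 7.63 ± 0.686 CPM, and at 1.36 ± 0.330 and 4.34 ± 0.275 CPM. H2-Q4, with 8, 11 and 11 counts in BS2, passed the filter in SB4 against BS2 only through SB4. Some members also passed it only through the group where they were high. These were Gm13443 and Gm14018 in both comparisons, Gm42656 in SB4 against BS2 and Amd-ps4 in BS6 against SB2. Their calls there are therefore no test. With at least 10 counts in every library, H2-Q4, Amd-ps4, Gm13443 and Gm14018 were not called in both. H2-Q4 was no longer called in both without SB4-1, without any 1 of the BS2 libraries or without BS6-1 or BS6-3, and 4933406C10Rik without BS6-1 or BS6-3. Among the members, Mfap1b was no longer called in both without SB4-1, BS6-1 or BS6-3, Glo1 without SB4-3 or BS6-1, and Amd-ps4 and Gm14018 without BS6-1 or BS6-3. In 1 fit over 12 libraries H2-Q4, 4933406C10Rik, Mfap1b and Gm14018 were not called in both. Libraries that did not overlap, in the same direction in both comparisons, were found for 7 of the 9 members tested in both and for 4.16% of all genes tested in both. In the single comparisons, the libraries of 16.7% (SB4 against BS2) and 38.9% (BS6 against SB2) of these genes did not overlap. The calls in BS6 against SB2 rested on all 3 SB2 libraries, since 0 genes were called by edgeR when SB2-1, SB2-2 or SB2-3 was left out, with 2938 to 3494 at an unadjusted p under 0.05, and DESeq2 called 1058 genes from all libraries.

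**Figure D3:**
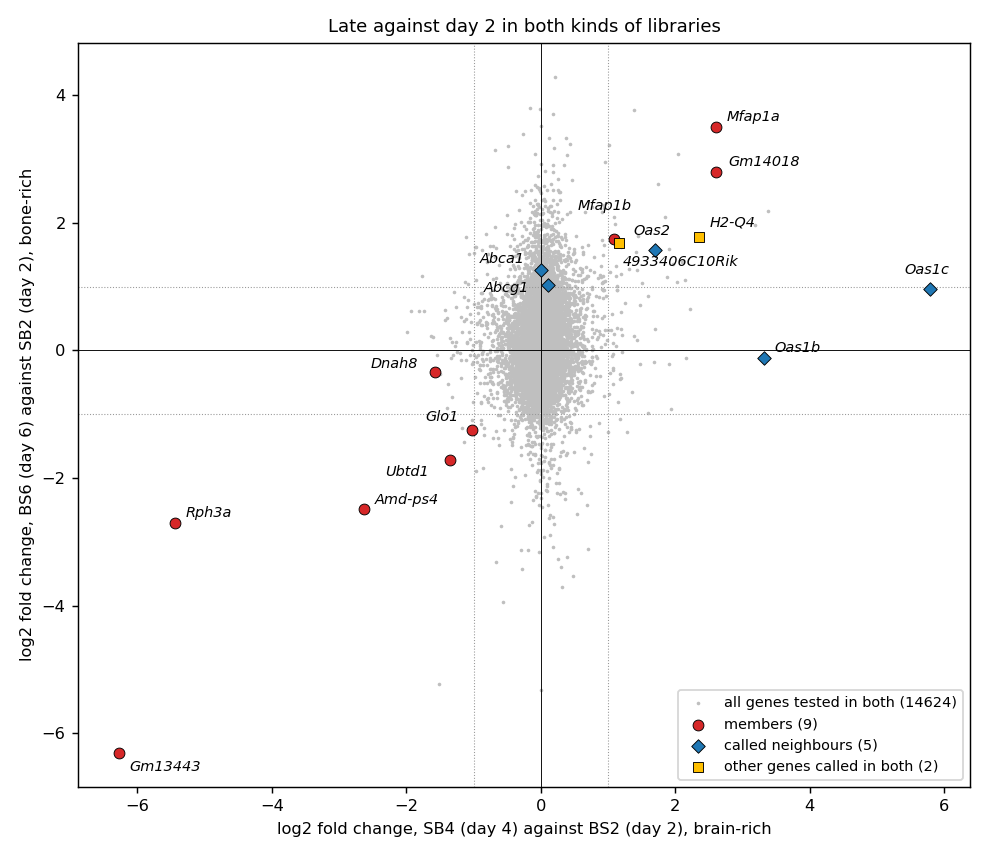
Log2 fold change of SB4 against BS2 (horizontal) and of BS6 against SB2 (vertical) for the 14624 genes tested in both comparisons (grey), with 9 members in red, 5 called neighbours in blue and 2 further genes called in both in yellow. Dotted lines mark the call threshold of 1 in either direction. Gm14018, at 0 in all day 2 libraries, is drawn at its lower bounds of 2.60 and 2.80, other points are fitted values, and Oas1c stands at 5.79 across and 0.97 up.

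The comparison of tissue content on a like day was not used to pick these genes. By the labels, SB2 and BS2 also differ in the injured organ, and so do BS6 and SB4. Between SB2 and BS2, both from day 2, 5 of 9 members tested were called, where 56.2% of 17252 genes were called. Rph3a and Gm42656 are among the 5 but passed the filter on low counts only through BS2, so their levels are given without a test: 1.83 ± 1.40 CPM in SB2 against 528 ± 20.6 CPM in BS2 for Rph3a, and 0.0222 ± 0.0384 CPM against 3.77 ± 0.815 CPM for Gm42656. Amd-ps4 was lower in SB2, with a log2 fold change of -1.51 ± 0.20 (edgeR adjusted p = 1.30e-05). This was not particular to it, since its near copies Amd1, Amd2 and Amd-ps3 were at -1.02 ± 0.08, -1.56 ± 0.20 and -1.51 ± 0.20. Dnah8 was higher in SB2, by 2.98 ± 0.14 (adjusted p = 8.20e-10), and so was Ubtd1, by 2.31 ± 0.15 (adjusted p = 1.96e-08). Glo1, Gm13443, Mfap1a and Mfap1b did not pass the test. Their log2 fold changes were 0.03 ± 0.07 (adjusted p = 0.717), 0.31 ± 0.14 (adjusted p = 0.0597), -0.37 ± 0.27 (adjusted p = 0.218) and -0.30 ± 0.26 (adjusted p = 0.289).

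Between BS6 and SB4, which differ in day as well, 4 of 8 members tested were called, where 55.4% of 17298 genes were called. Rph3a and Amd-ps4 are among them but passed the filter only through SB4. Rph3a stood at 0.263 ± 0.401 CPM in BS6 against 12.2 ± 1.08 CPM in SB4, and Amd-ps4 at 0.525 ± 0.266 CPM against 1.38 ± 0.413 CPM. Amd1, Amd2 and Amd-ps3 were lower in BS6 too, with log2 fold changes of -1.43 ± 0.27, -2.10 ± 0.20 and -1.80 ± 0.17. Dnah8 differed by 4.24 ± 0.27 (edgeR adjusted p = 2.90e-05) and Ubtd1 by 1.98 ± 0.63 (adjusted p = 0.0275). The call of Amd-ps4 was lost without SB4-1, SB4-3, BS6-1 or BS6-2 (log2 fold changes of -1.41, -1.11, -1.10 and -1.21), and that of Ubtd1 without SB4-1, SB4-2, SB4-3 or BS6-3 (1.66, 2.11, 2.18 and 1.18). Mfap1a (0.53 ± 0.25, adjusted p = 0.0938), Mfap1b (0.38 ± 0.23, adjusted p = 0.171), Glo1 (-0.18 ± 0.11, adjusted p = 0.188) and Gm14018 (0.17 ± 0.45, adjusted p = 0.747) did not pass. In bulk tissue, fewer cells of a type and less RNA per cell cannot be told apart.

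The genes around the members were taken by position, as the 5 nearest on each side in the count table, which gave 61 neighbours. In SB4 against BS2, 2 of 42 neighbours tested were called, beside 0.147% of all genes, and in BS6 against SB2, 4 of 45, beside 1.86%. Of these, Oas1b in the first and Oas1a in the second passed the filter only through the group where they were high, so their counts are given below without a test. The neighbours of Gm13443, of the Mfap1 locus and of Ubtd1 gave 0 calls by edgeR or DESeq2 in either comparison. At an unadjusted p under 0.05 there were 1 and 4 of them around Gm13443, 0 and 2 around the Mfap1 locus and 0 and 3 around Ubtd1. Around the Mfap1 locus, 7 neighbours were tested, whose log2 fold changes ran from -0.65 to 0.21 in the brain-rich and from -0.91 to 0.18 in the bone-rich comparison. Wdr76 was among them. Around Gm13443 they ran from -0.29 to 0.31 and from -0.51 to 0.77, and around Ubtd1 from -0.15 to 0.08 and from -0.81 to 0.42. The plot of log2 fold change against distance shows the genes of these 3 loci between -0.91 and 0.77 on both sides of the members.

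**Figure D4:**
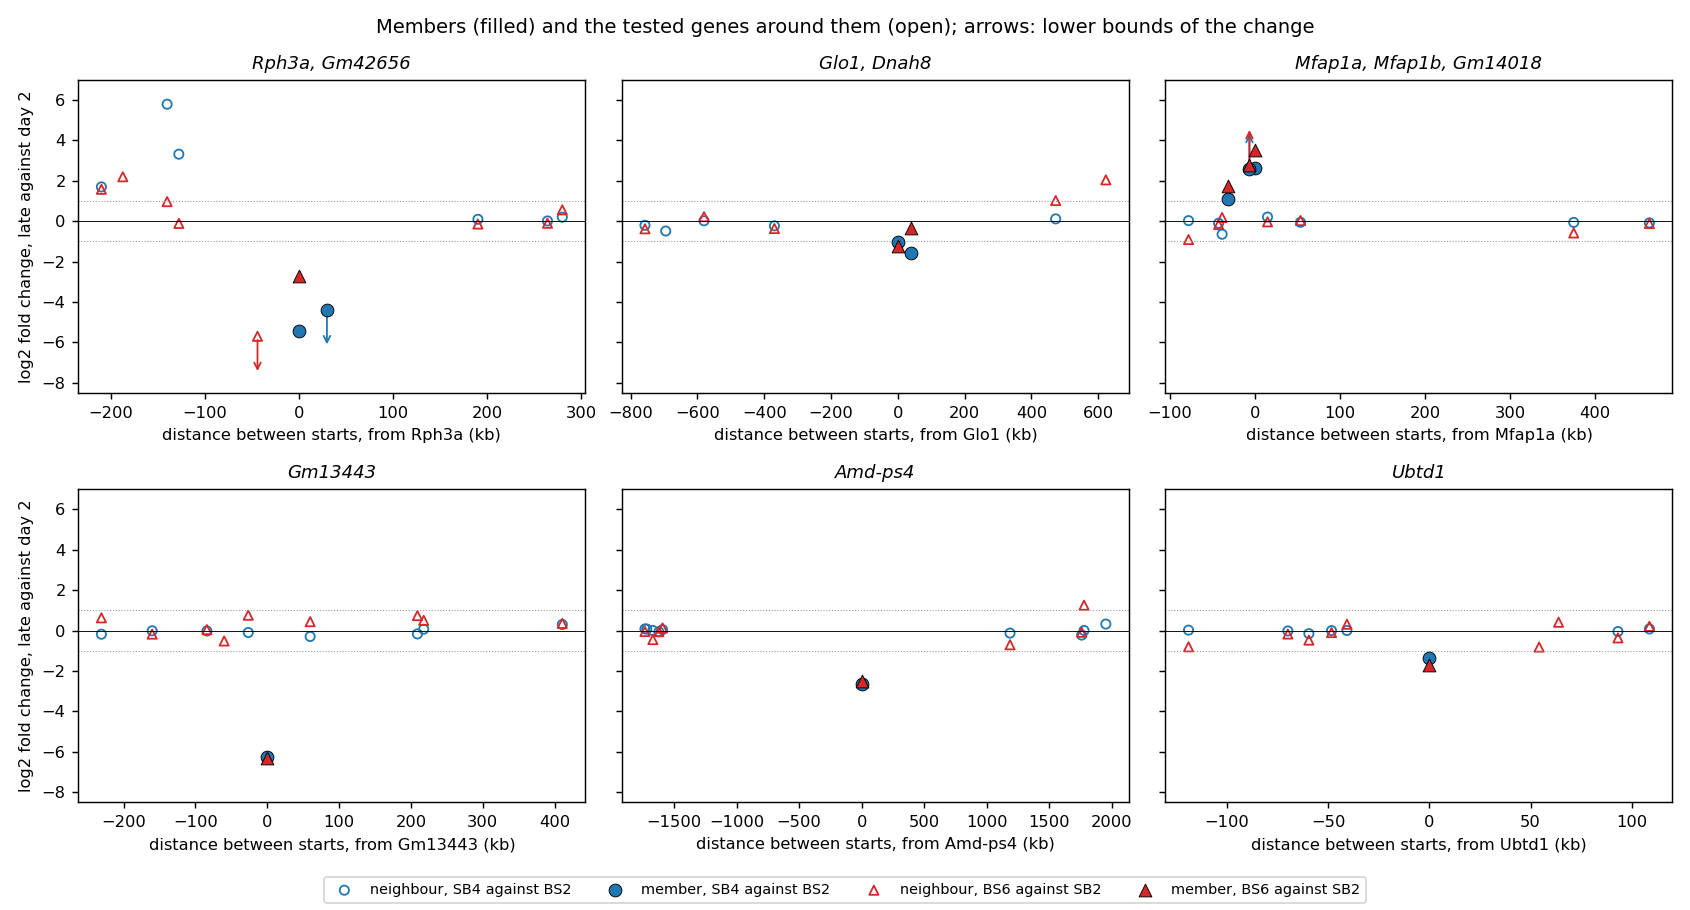
Log2 fold change, late against day 2, of the members (filled) and of the tested neighbours (open) against the distance between gene starts in kb, at 6 loci, with SB4 against BS2 as circles and BS6 against SB2 as triangles. Dotted lines mark a change of 1 in either direction. At the Mfap1 locus the members stand above neighbours that lie between -0.91 and 0.21, and at the Rph3a locus Oas1c stands at 5.79 in SB4 against BS2. Arrows mark Gm42656, Gm14018 and Oas1a where they were at 0 in a whole group, drawn at the lower bound that 3 counts per library allow.

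Beside Rph3a lies the cluster of Oas genes, named for the oligoadenylate synthetases of the interferon response. In the annotation Oas1b is a polymorphic pseudogene, and the other Oas genes named here are protein-coding. Oas1c (chr5:120800194-120812514) had 22, 23 and 19 counts in BS2 and 1167, 1294 and 1435 counts in SB4. The level rose from 1.38 ± 0.0876 to 77.7 ± 6.51 CPM, and the log2 fold change was 5.79 ± 0.13 (edgeR adjusted p = 3.33e-18). In the bone-rich groups it had 18, 28 and 21 counts in SB2 and 15, 68 and 46 in BS6, which overlapped (0.97 ± 0.55, adjusted p = 0.285). Oas1b (chr5:120812635-120824163) had 11, 8 and 8 counts in BS2 and 84, 95 and 120 in SB4, levels of 0.581 ± 0.0683 and 5.94 ± 0.760 CPM that did not overlap. It had 134, 120 and 141 counts in SB2 and 73, 66 and 212 in BS6 (-0.11 ± 0.47, adjusted p = 0.897).

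Oas1a (chr5:120896256-120907521), the Oas gene nearest to Rph3a, had 179, 146 and 157 counts in SB2 and 0 counts in each BS6 library, at least 52.0-fold lower with 3 counts per library as the limit. It had 4, 8 and 5 counts in BS2 and 0 counts in each SB4 library, too few to be tested. Oas2 had 453, 345 and 435 counts in SB2 and 710, 1143 and 1687 counts in BS6 and rose (1.58 ± 0.30, adjusted p = 0.0409), but its brain-rich groups overlapped (1.70 ± 0.83, adjusted p = 0.487). Oas3, between Oas2 and Oas1c, had 92, 179 and 164 counts in SB2 and 255, 631 and 1074 counts in BS6, which did not overlap. It was not called by edgeR (2.20 ± 0.56, adjusted p = 0.0693) but was called by DESeq2. The tested genes on the other side of Rph3a were not called in either comparison. The call of Oas2 was lost without any 1 of the 6 bone-rich libraries, with log2 fold changes of 1.22 to 1.83.

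At the Glo1 and Amd-ps4 loci, neighbours were called by edgeR in BS6 against SB2 and 0 in SB4 against BS2, where 1 neighbour of Glo1 and Dnah8 and 0 of Amd-ps4 had an unadjusted p under 0.05 and DESeq2 called 0. Abcg1, a cholesterol exporter at the Glo1 locus, rose from 16.1 ± 2.70 to 32.3 ± 2.14 CPM (1.02 ± 0.15, edgeR adjusted p = 0.0311), and Abca1, a cholesterol exporter 1778 kb from Amd-ps4, from 89.5 ± 4.89 to 212 ± 18.2 CPM (1.26 ± 0.11, adjusted p = 0.0184). Without any 1 of the SB2 libraries neither was called, and Abcg1 was also not called without any 1 of the BS6 libraries (0.89 to 1.14 over all 6). Ubash3a, a further neighbour of Glo1 and Dnah8, had 21, 18 and 13 counts in SB2 and 24, 151 and 36 in BS6 and was called by DESeq2 but not by edgeR (2.04 ± 0.73, adjusted p = 0.130).

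The genes most like each member were ranked over 12 libraries by Pearson's r of log2(CPM + 1), after the mean of the 6 libraries of like tissue content was taken off, among 17263 genes. All points share libraries and the same day 2 to late split, and the members were chosen for that split, so a member ranking first for another follows in part from the choice. The gene most like Glo1 was Gm13443 (r = 0.981) and the reverse, the gene most like Mfap1a was Gm14018 (r = 0.966) and the reverse, and the gene most like Rph3a was Gm42656 (r = 0.960). Amd-ps4 was most like Gm13443 (r = 0.956), and Dnah8 most like Rph3a (r = 0.921). The gene most like Gm42656 was Gm13630 (r = 0.968), with 46, 48 and 44 counts in BS2 and 22, 30 and 26 counts in SB4. For Mfap1b it was H2-T22 (r = 0.962), ahead of H2-Q5 (r = 0.959) and Mfap1a (r = 0.952), and for Ubtd1 it was Ndnf (r = 0.954). H2-T22 stood at 5.14 ± 0.438 CPM in BS2 and 8.45 ± 0.960 CPM in SB4, and at 31.7 ± 5.42 CPM in SB2 and 56.1 ± 2.76 CPM in BS6. Ndnf stood at 19.6 ± 2.49 and 16.4 ± 3.38 CPM, and at 153 ± 1.83 and 85.4 ± 23.2 CPM.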

How the data were processed

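RNA-seq counts of 12 libraries, 3 in each of 4 groups, were used. After trimming with fastp, the authors aligned reads to mm10 by HISAT2 2.1.0, and the deposited values are unnormalized counts by gene symbol. The counting program, annotation and strand setting are not given in the sources used here. The authors removed batch effects with ComBat_seq, and whether the deposited counts precede that step is not stated. Coordinates and transcripts are from GENCODE M21 (22022 of 22317 symbols matched) and upstream sequences from RefSeq.

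Groups were tested in edgeR 4.0.16 (R 4.3.3) by robust quasi-likelihood fits of 2 groups of 3 libraries, after TMM scaling and a low-count filter (filterByExpr, at least 10), with Benjamini-Hochberg adjustment over all genes tested. The unit CPM was computed from the deposited counts with TMM factors over the 12 libraries. Standard errors of log2 fold changes were derived from F. The fit was tested on simulated data. Alternatives were DESeq2 1.42.0, other scalings and filters, 1 fit over 12 libraries, a replicate block, other neighbour windows and leaving out each library.

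The sequence of 1 gene is not reported here. The members and lists were chosen with earlier results of these data known. The named genes were the members, called neighbours, the genes most like each member, copies by sequence and up to 4 genes per list. H2-Q4, Ier2, Ctps2, Ager, Oas3, Ubash3a, Dnah7a and Dnah14 were named after their values were seen. Reads carried no molecular identifiers, and so limits from a count of 0 (3 counts) and Wilson intervals cover counting error only.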

Additional observations from a re-analysis of the deposited data

Results flagged for a closer look

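For 3 neighbours of the members, the early-to-late change differed between the brain-rich and the bone-rich libraries in a contrast over all 12 libraries, which was added after the data were seen. The change in SB4 against BS2 less that in BS6 against SB2 was 4.78 ± 0.57 (SE, log2) for Oas1c (edgeR adjusted p = 0.00450), beside Rph3a. For Oas1b, which lies beside it and had 11, 8 and 8 counts in BS2, it was 3.39 ± 0.60 and is given without a test. It was -1.29 ± 0.11 for Abca1 (adjusted p = 0.00265) and -0.94 ± 0.16 for Abcg1 (adjusted p = 0.0162). Leaving out 1 library at a time gave 4.43 to 5.23 for Oas1c and -1.33 to -1.17 for Abca1, all at an edgeR adjusted p under 0.05. Oas1b ranged from 3.10 to 4.20. Abcg1 ranged from -1.06 to -0.82, and its adjusted p was not under 0.05 without BS2-3, SB4-1 or SB4-3. The cause was not tested. For Oas2 the difference was 0.08 ± 0.75 (adjusted p = 0.969). Groups of 3 libraries were not searched for outlying libraries.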

How the results depend on the processing

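All 259 alternative log2 fold changes of the members in both early-to-late comparisons kept their direction, and 20 of them moved by more than the spread between replicates. The members were chosen on these comparisons and the alternatives refit the same counts, so the kept direction is no test. The counts of calls moved more. In SB4 against BS2 the 24 calls became 49 with DESeq2, 50 without a filter, 61 with the replicate block, 8 in 1 fit over 12 libraries and 153 by adjusted p alone, and 18 to 85 with 1 library left out. In BS6 against SB2 the 303 calls became 1058 with DESeq2, 0 with the replicate block (3950 genes at an unadjusted p under 0.05), 1273 in 1 fit over 12 libraries and 932 by adjusted p alone, and 0 to 667 with 1 library left out. The 8 genes called the same way in both became 17 with DESeq2, 13 without a filter, 4 with at least 10 counts in every library, 0 with the replicate block, 5 in 1 fit over 12 libraries and 17 by adjusted p alone, and 0 to 24 with 1 library left out. Of the 8, DESeq2 kept 7 and the filter of 10 counts in every library kept 4. Called neighbours in SB4 against BS2 fell from 2 to 1 with at least 10 counts in every library, and were 2 to 3 with 1 library left out. In BS6 against SB2 they fell from 4 to 0 with the replicate block and were 0 to 4 with 1 library left out. With 10 genes on each side the counts were 2 and 4, and within 500 kb they were 2 and 3.

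Same-numbered libraries did not deviate together (correlations of -0.0987 to 0.0779), so the numbers do not pair them. Of 234 alternative values of the members between tissue contents, 221 kept direction and call, 8 lost the call and 5 changed sign. The sign changes were all of values that did not pass the test. Leaving out 1 library gave -0.12 to 0.66 for Gm14018 (BS6 against SB4), -0.023 to 0.076 for Glo1 (SB2 against BS2), -0.87 to 0.19 for Oas1b (BS6 against SB2), -0.024 to 0.048 for Abca1 (SB4 against BS2), and -0.35 to 0.82 for the difference of Oas2. The cause of these shifts was not tested. Depth limits Gm42656, Gm14018 and Oas1a, which were at 0 in whole groups.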
